A study of Mus musculus with 8 samples.

Results

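The genes described here are 10 enzymes and regulators of hepatic de novo lipogenesis, the pathway by which the liver makes fatty acids from carbohydrate: Fasn, Acaca, Acacb, Acly, Scd1, Elovl6, Srebf1, Mlxipl, Me1 and Thrsp. They were chosen by symbol from the 24451 genes of the deposited table, and all 10 were found. Gene expression was measured by bulk RNA sequencing of the left liver lobe in 4 Brap LKO mice and 4 Brap F/F controls, all male C57BL/6 mice, 18 wk old and fasted for 6 h. Both groups carried Brap alleles in which exons 2 and 3 lie between recombination sites, and the Brap LKO mice also carried an Albumin-Cre transgene, a driver chosen for hepatocytes. Recombination in other liver cells was not measured here. The controls carried no Cre, so an effect of the Cre transgene and one of Brap loss cannot be told apart.

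In the pathway, citrate leaves the mitochondrion and is cleaved to acetyl-CoA, acetyl-CoA is carboxylated to malonyl-CoA, and fatty acid synthase joins these units with reducing power from NADPH. The product palmitate is then elongated and desaturated. Insulin drives the genes through SREBP-1c, the product of Srebf1, and sugar drives them through ChREBP, the product of Mlxipl, so that expression in the liver is high after feeding and low in fasting.

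Values are normalized counts, that is, reads on a gene divided by a scaling factor for that liver. The livers held 26280884 to 33313914 reads on genes, and each of the 10 genes had at least 861 reads in every liver, so that counting error was small beside the differences between animals. Brap itself did not check the labels, since a count over the whole gene also takes reads outside the removed exons. Its normalized counts were 4042, 4203, 4065 and 3641 in Brap LKO replicates 1 to 4, and 4410, 4235, 3994 and 4106 in Brap F/F replicates 1 to 4.

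The control livers were not alike. Over all genes, Brap F/F replicates 2 and 3 lay close to each other, with a chi-square per degree of freedom of 27.8 between their reads, and replicates 1 and 4 formed a second pair at 41.5. Between the pairs the value was 128 to 191, and among Brap LKO livers it was 13.1 to 53.3. Abundant genes weigh most in this value, and it includes the 10 genes described here, among them the very abundant Scd1. The pairs are therefore not independent of these genes. Brap F/F replicates 2 and 3 carried consecutive animal numbers in the labels, and the number of replicate 1 belonged to the run that holds Brap LKO replicates 1 to 3. Brap F/F replicate 4 had a number just above those of replicates 2 and 3, so the numbers did not follow the expression pairs. The number of Brap LKO replicate 4 lay between that run and the other controls. Lower numbers were mostly Brap LKO and higher ones mostly Brap F/F, so this animal series and the genotype cannot be fully told apart. The labels give no litter, cage or day for the livers. The 10 genes are therefore given for each liver, and their fold changes and the medians of the gene lists also without each pair of controls.

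The sequences of 4 windows are shown because they stand before genes at different steps of the pathway. They are the 250 bases before a transcription start, read 5′ to 3′ on the strand of the gene, from the RefSeq table of GRCm38.p6. Capitals mark matches, on either strand, to the sterol response element TCACNCCAC, the E-box CACGTG, its variant CATGTG, the CCAAT box CCAAT or the GC box GGGCGG. The Fasn window lay at chr11:120824548-120824797 on the minus strand, directly before the annotated gene. The Acly window lay at chr11:100528001-100528250 on the minus strand, also directly before its gene. The Acacb window lay at chr5:114165268-114165517 on the plus strand, before a start inside the annotated gene. All 250 of its bases lay within that gene, 9 of them in annotated exons. The Srebf1 window lay at chr11:60210472-60210721 on the minus strand, before the most downstream of the listed starts, in an intron of the longer transcripts.
Fasn: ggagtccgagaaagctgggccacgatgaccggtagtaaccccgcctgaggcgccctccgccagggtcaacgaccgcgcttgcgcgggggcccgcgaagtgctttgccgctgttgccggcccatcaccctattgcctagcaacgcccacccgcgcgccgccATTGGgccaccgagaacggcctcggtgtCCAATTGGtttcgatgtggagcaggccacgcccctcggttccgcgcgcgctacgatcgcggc
Acly: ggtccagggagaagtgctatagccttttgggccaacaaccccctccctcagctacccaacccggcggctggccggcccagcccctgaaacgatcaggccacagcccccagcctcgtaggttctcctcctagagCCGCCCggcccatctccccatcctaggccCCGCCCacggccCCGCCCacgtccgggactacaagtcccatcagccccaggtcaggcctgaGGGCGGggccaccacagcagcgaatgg
Acacb: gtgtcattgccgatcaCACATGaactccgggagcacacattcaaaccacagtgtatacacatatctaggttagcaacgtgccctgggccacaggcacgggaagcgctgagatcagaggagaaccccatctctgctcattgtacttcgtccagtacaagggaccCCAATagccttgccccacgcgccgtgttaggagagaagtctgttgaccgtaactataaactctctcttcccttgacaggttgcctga
Srebf1: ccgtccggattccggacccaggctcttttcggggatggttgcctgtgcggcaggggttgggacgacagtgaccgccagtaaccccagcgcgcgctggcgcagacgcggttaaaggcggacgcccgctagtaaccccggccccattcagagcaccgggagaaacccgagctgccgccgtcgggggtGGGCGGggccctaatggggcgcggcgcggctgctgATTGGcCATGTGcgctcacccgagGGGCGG

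The Fasn window held 3 CCAAT boxes, the Acly window 4 GC boxes, the Acacb window 1 CCAAT box and 1 E-box variant, and the Srebf1 window 2 GC boxes, 1 CCAAT box and 1 E-box variant. RefSeq windows were found for 9 of the 10 genes, 13 windows in all. A CCAAT box was in 7 of these 13, against 33.8% of 32851 promoter windows of the same length, and a GC box was in 5, against 32.7%. The sterol response element was in 1 of the 13, an Mlxipl window, against 1.05% of all windows. The E-box was in 1, another Mlxipl window, against 6.02%, and its variant in 3, against 12.3%. These matches describe the letters only.

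None of the 10 genes passed the threshold between Brap LKO and Brap F/F livers. With limma, 0 of 10 were called at an adjusted p under 0.05, against 0.664% of 15352 tested genes called higher and 0.104% called lower. At an unadjusted p under 0.05, 1 of 10 passed with each tool, against 15.8% of genes with limma, 15.6% with edgeR and 15.9% with DESeq2. After adjustment edgeR called 0 of 10, against 0.795% of genes, and DESeq2 called 1 lower, Acacb, against 1.13% of genes called lower. The log2 fold change was above 0 for 2 genes and below 0 for 8, with a median of -0.26 against -0.01 over all tested genes. Adjusted p-values from limma ran from 0.111 to 0.996. Since tissue was bulk, fewer cells of a type and less RNA per cell cannot be told apart.

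Levels spanned a wide range. Divided by the length of the main annotated transcript in kilobases, Scd1 was highest, at 32269 ± 6981 (SD, n = 4) in Brap LKO and 69773 ± 55317 (SD, n = 4) in Brap F/F, and Acaca was lowest, at 161 ± 10.6 and 168 ± 58.7. Between them, by mean over the 8 livers, came Thrsp, Mlxipl, Srebf1, Acly, Fasn, Me1, Elovl6 and Acacb in that order. Srebf1 and Acly kept this order in 5 of 8 livers, as did Fasn and Me1, and Elovl6 and Acacb. The other neighbours kept it in all 8.

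**Figure D1:**
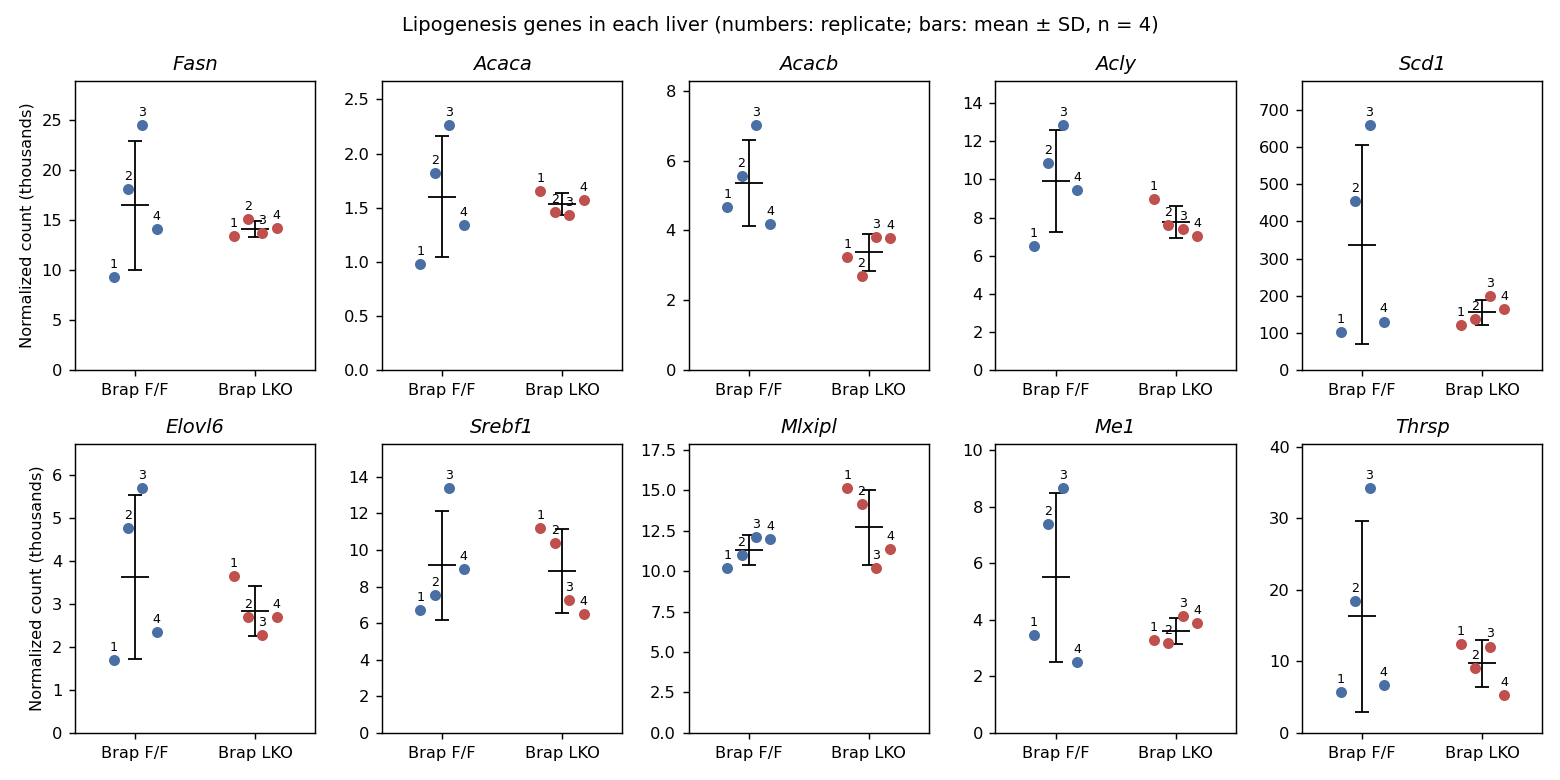
Normalized counts (in units of 1000) of the 10 lipogenesis genes in each Brap F/F and Brap LKO liver, with the replicate number above each point and bars for the mean ± SD (n = 4). Brap F/F replicates 2 and 3 lie above replicates 1 and 4 for 8 genes, and Acacb is the gene whose groups do not overlap.

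Acetyl-CoA and its reducing power come from Acly and Me1. Acly, ATP citrate lyase, cleaves citrate to acetyl-CoA in the cytosol. Its normalized counts were 8968, 7625, 7404 and 7039 in Brap LKO replicates 1 to 4, and 6526, 10837, 12839 and 9460 in Brap F/F replicates 1 to 4. Brap F/F replicates 2, 3 and 4 were above every Brap LKO liver and replicate 1 was below all of them, and the log2 fold change was -0.32 (SE 0.185, limma adjusted p = 0.433). Me1, cytosolic malic enzyme, makes NADPH. It measured 3273, 3191, 4137 and 3875 in Brap LKO livers and 3462, 7392, 8677 and 2514 in Brap F/F livers. Brap F/F replicates 2 and 3 were above all the other 6 livers, and the log2 fold change was -0.43 (SE 0.354, limma adjusted p = 0.573).

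The carboxylases make malonyl-CoA. Acaca encodes the cytosolic form, which feeds fatty acid synthesis, and Acacb the form at the outer mitochondrial membrane, whose malonyl-CoA restrains the entry of fatty acids into mitochondria. Acaca counts were 1657, 1465, 1437 and 1569 in Brap LKO livers and 982, 1819, 2262 and 1344 in Brap F/F livers. The Brap LKO values lay inside the range of the controls, and the log2 fold change was 0.003 (interval -0.49 to 0.49 at 95% confidence, limma adjusted p = 0.996). Acacb counts were 3231, 2686, 3802 and 3776 in Brap LKO livers and 4668, 5550, 7015 and 4194 in Brap F/F livers. Every Brap LKO liver was below every control, which was so for 1 of the 10 genes and for 4.39% of tested genes in this direction.

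The mean of Acacb was 3374 ± 529 (SD, n = 4) in Brap LKO and 5356 ± 1240 (SD, n = 4) in Brap F/F. Its log2 fold change was -0.65 (SE 0.168, 95% confidence interval -1.03 to -0.27), 36.4% lower, and the exact permutation test of 4 livers against 4 gave p = 0.0286 (two-sided), the smallest value it can give. Across all genes, the adjusted p was 0.111 with limma, 0.116 with edgeR and 0.0121 with DESeq2, so that the call depended on the tool. Leaving out single livers gave log2 fold changes of -0.76 to -0.51, with limma adjusted p of 0.0606 to 0.291. With animal series as a covariate the log2 fold change was -0.54 (limma adjusted p = 0.293). The log2 fold change was -0.41 without Brap F/F replicates 2 and 3 (limma adjusted p = 0.204) and -0.90 without replicates 1 and 4 (limma adjusted p = 0.0106). Both settings were added after the data were seen. Since every Brap LKO liver was below every control, the sign was fixed in advance. Replicates 1 and 4 were the controls with the lower Acacb counts, so leaving them out must lower the fold change. Neither fit is a test of the genotype.

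**Figure D2:**
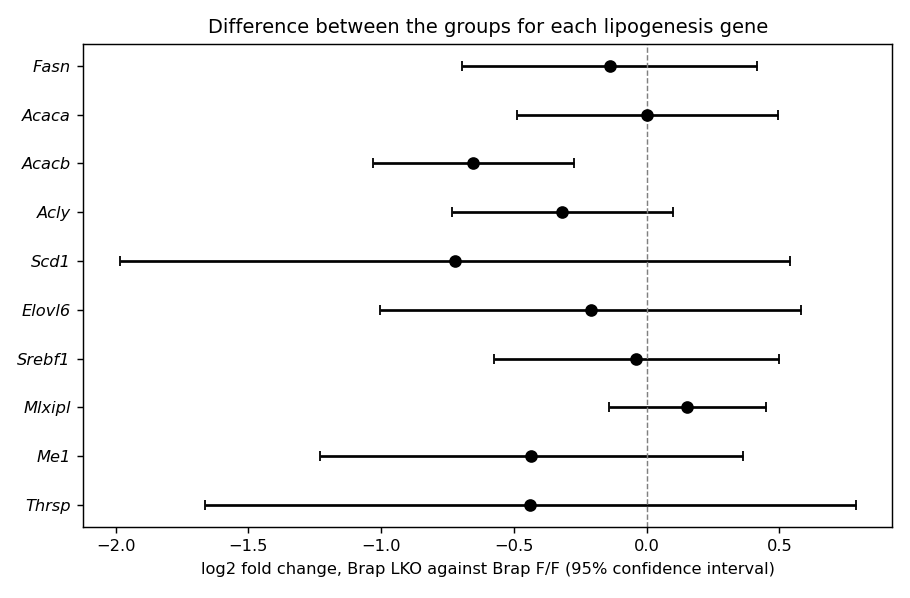
Log2 fold change of Brap LKO against Brap F/F for each lipogenesis gene, with points for the limma estimate and bars for its 95% confidence interval (n = 4 per group). The interval of Acacb, -1.03 to -0.27, lies below 0, and those of the other 9 genes include 0.

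The balance of the carboxylases was then compared within each liver. The ratio of Acacb to Acaca normalized counts was 1.95, 1.83, 2.65 and 2.41 in Brap LKO livers and 4.75, 3.05, 3.10 and 3.12 in Brap F/F livers. The groups did not overlap, and the mean log2 ratio was 1.13 ± 0.249 in Brap LKO and 1.78 ± 0.311 in Brap F/F (SD, n = 4), a difference of -0.66. The exact permutation test gave p = 0.0286, the smallest of 70 arrangements, and p = 0.0857 after adjustment over the 3 ratios compared, so it did not pass the threshold. A ratio within a liver does not depend on how that liver was scaled. The ratio of Scd1 to Fasn ran from 9.10 to 14.6 in Brap LKO and from 9.26 to 26.9 in Brap F/F (exact permutation p = 0.286), and that of Mlxipl to Srebf1 from 1.36 to 1.75 and from 0.904 to 1.52 (exact permutation p = 0.486).

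**Figure D3:**
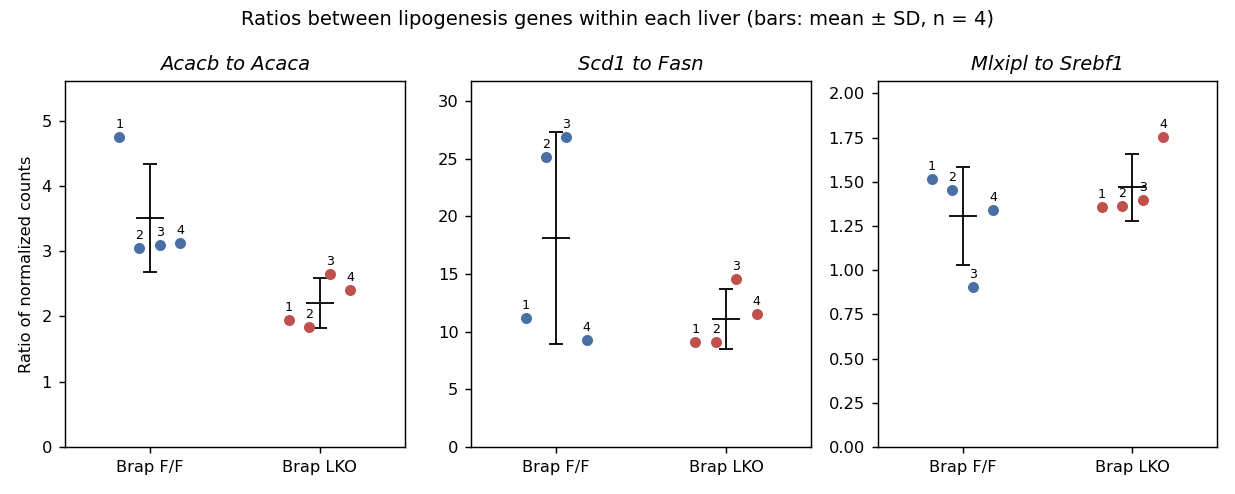
Ratios of normalized counts between pairs of lipogenesis genes in each liver, with the replicate number above each point and bars for the mean ± SD (n = 4). The Acacb to Acaca ratio is at most 2.65 in Brap LKO and at least 3.05 in Brap F/F, and the other ratios overlap.

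Fasn, fatty acid synthase, makes palmitate from malonyl-CoA. Its counts were 13437, 15147, 13707 and 14213 in Brap LKO livers, a span of 1.13 times, and 9276, 18084, 24517 and 14144 in Brap F/F livers, a span of 2.64 times. The controls lay on both sides of the Brap LKO livers, and the log2 fold change was -0.14 (SE 0.247, limma adjusted p = 0.811). Elovl6, which elongates palmitate to stearate, measured 3644, 2684, 2283 and 2686 in Brap LKO livers and 1699, 4750, 5694 and 2345 in Brap F/F livers. Again Brap F/F replicates 2 and 3 were highest and replicate 1 lowest of the 8, and the log2 fold change was -0.21 (SE 0.353, limma adjusted p = 0.798).

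Scd1, stearoyl-CoA desaturase 1, makes oleate and is the main hepatic form. Counts were 122553, 137778, 199628 and 163745 in Brap LKO livers and 103919, 454565, 659099 and 130985 in Brap F/F livers. Brap F/F replicate 3 was 6.34 times replicate 1, while the Brap LKO livers spanned 1.63 times. The log2 fold change of -0.72 had an interval of -1.98 to 0.54 (limma adjusted p = 0.553). It was -0.26 without Brap F/F replicate 3 and -0.44 without replicate 2, and -1.15 without replicate 1, and edgeR gave -1.10 and DESeq2 -1.11, none of them past the threshold. Scd1 alone took 62.7% to 84.5% of the reads on the 10 genes. Together these genes took 0.713%, 0.721%, 0.904% and 0.791% of all reads on genes in Brap LKO livers and 0.511%, 1.65%, 2.44% and 0.624% in Brap F/F livers, a mean of 0.782% ± 0.0885 against 1.31% ± 0.912 (SD, n = 4). Short reads of near-identical Scd paralogs may be shared among them.

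Srebf1, Mlxipl and Thrsp encode regulators of the pathway. Srebf1 measured 11178, 10365, 7282 and 6478 in Brap LKO livers and 6718, 7553, 13398 and 8942 in Brap F/F livers, and gene counts do not separate its SREBP-1a and SREBP-1c transcripts. Its log2 fold change was -0.04 (SE 0.239, limma adjusted p = 0.950). Mlxipl measured 15161, 14148, 10187 and 11364 in Brap LKO livers and 10186, 10998, 12112 and 11987 in Brap F/F livers. It was the gene of the 10 with the narrower spread in controls, and its log2 fold change was 0.15 (SE 0.132, limma adjusted p = 0.595). In the annotation, 4.24% of its exon bases overlap a gene on the opposite strand. Thrsp, Spot 14, a regulator of lipogenesis that responds to thyroid hormone, measured 12445, 9029, 12068 and 5272 in Brap LKO livers and 5718, 18464, 34230 and 6654 in Brap F/F livers. Its log2 fold change was -0.44 (SE 0.545, limma adjusted p = 0.718), and the interval of -1.66 to 0.79 spans changes in both directions.

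The clearest pattern among these genes lay within the controls. Brap F/F replicates 2 and 3 were both above replicates 1 and 4 for 8 of 10 genes, all but Srebf1 and Mlxipl, whereas 28.0% of tested genes showed this order and 27.6% the opposite. Replicate 3 was the highest of the 8 livers for 9 genes and replicate 1 the lowest for 6. The SD of log2 values was larger in Brap F/F than in Brap LKO for 9 of 10 genes, with a median of 0.56 against 0.25, while over all tested genes it was larger in Brap F/F for 64.0%, with medians of 0.22 and 0.17. These are descriptions of 4 livers. The SDs of the groups were not compared by a test.

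**Figure D4:**
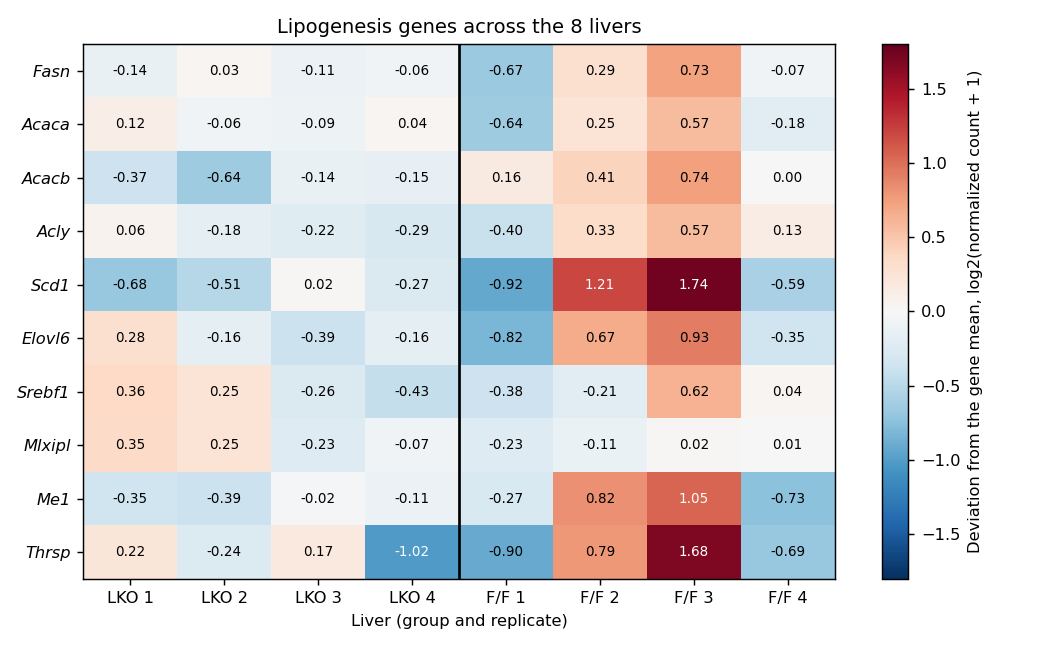
Deviation of each lipogenesis gene from its mean over the 8 livers, on the log2(normalized count + 1) scale, with red for above and blue for below and the value in each cell. Brap F/F replicate 2 is above 0 for 8 genes and replicate 3 for all 10, and Brap F/F replicate 1 is below 0 for all but Acacb.

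The mean differences between the groups turned on these pairs. Without Brap F/F replicates 2 and 3, 8 of 10 genes were above 0 and the median log2 fold change was 0.29. Scd1 was at 0.39, Fasn at 0.30 and Thrsp at 0.58. In that setting 0 of 10 passed the threshold with limma, where 0.801% of all genes were called higher and 0.306% lower. Without replicates 1 and 4, 9 of 10 were below 0 and the median was -0.76, with Scd1 at -1.84 (limma adjusted p = 0.00427), Me1 at -1.15 (limma adjusted p = 0.00192) and Fasn at -0.58 (limma adjusted p = 0.0246). In that setting 8 of 10 passed as lower, all but Srebf1 and Mlxipl, where 4.59% of all genes were called lower. Both settings were added after the data were seen, and the pairs were read from expression that includes these genes. Dropping the controls with low values must lower the fold changes of genes that are high in the others, so neither fit is a test of the genotype. The difference kept its sign in both settings for Acacb, Acly and Mlxipl. Acly was close to 0 without Brap F/F replicates 2 and 3, at -0.024 (SE 0.155). Mlxipl was 0.18 (SE 0.166) in that setting and 0.12 (SE 0.157) without replicates 1 and 4. A kept sign therefore does not establish a direction for Acly or Mlxipl.

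Other genes also differed between the control pairs. Cyp4a14, an omega-hydroxylase induced by PPARα that was picked for this pattern after its values were seen, measured 9235, 45700, 31815 and 707 in Brap F/F replicates 1 to 4 and 1323 to 3965 in Brap LKO livers. Of the adipocyte markers, Adipoq, Plin1 and Retn were at 0 to 4.20 normalized counts in every liver. The summed normalized counts of the 7 adipocyte markers in the table were 1324, 1014, 1431 and 1309 in Brap F/F replicates 1 to 4 and 930 to 1259 in Brap LKO. Hepatocyte markers summed to 3096880, 4258281, 3650499 and 3594278 in the controls and 2591089 to 3304148 in Brap LKO. Limma called 0 of 9, against 0.769% of all genes called in either direction. The part of these genes and cells in the pattern was not tested.

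The genes whose profiles over the 8 livers were most like the mean profile of the 10 were Slc44a1, a choline transporter-like protein, Tiparp, Hint3, Igbp1 and Eif4b, with Pearson correlations of 0.96 to 0.98. Those most opposite were Mup-ps18, Asap3, Ifi35, Zbp1 and S1pr2, at -0.98 to -0.97. They were the extremes of 11305 genes, over 8 livers of which 2 set most of the range. Slc44a1 measured 1629 and 1973 in Brap F/F replicates 2 and 3 and 1174 to 1371 in the other 6 livers. Zbp1, a sensor of nucleic acids, measured 79.3 and 62.0 in those replicates and 263 to 619 in the others.

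The regulator Srebf1 was compared with the other 9 genes, and no relation passed after adjustment over the 9. Its Pearson correlation over 8 livers was highest with Mlxipl, at r = 0.72 (exact permutation p = 0.0467, adjusted p = 0.161), with Spearman's rho = 0.79 (exact permutation p = 0.0279, adjusted p = 0.137). Without Brap LKO replicate 1 and Brap F/F replicate 3, the livers farthest from the median of Srebf1, r with Mlxipl was 0.85. The correlation with Acly was 0.68 (rho 0.76) and went to 0.34 without these livers. That with Fasn went from 0.62 (rho 0.38) to 0.38, that with Elovl6 from 0.62 (rho 0.57) to 0.14, and that with Thrsp from 0.66 (rho 0.74) to 0.19. Leaving out the livers farthest from the median narrows the range of Srebf1, which can itself lower r. Whether these relations hold can therefore not be told from the remaining livers.

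Genes around the pathway were read from 9 lists of 135 genes, of which 133 were tested. Limma called 1 higher and 0 lower and edgeR called 1, against 0.664% of all genes called higher by limma and 0.795% called by edgeR, and DESeq2 called 7, 5.26% against 4.15% of all genes. At an unadjusted p of 0.05 with limma, 8 passed as higher and 18 as lower, 19.5% of the 133 against 15.8% of all genes. Those lower were 13.5% against 6.59%. The median log2 fold change was -0.12. The gene called higher was Scd2, a desaturase paralog that is low in adult liver. It measured 271, 324, 258 and 345 in Brap LKO livers and 111, 132, 182 and 150 in Brap F/F livers.

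Every Brap LKO liver was above every control for Scd2, as for 5.48% of tested genes, with a log2 fold change of 1.07 (SE 0.164), and the adjusted p was 0.0298 with limma, 0.0302 with edgeR and 1.2e-06 with DESeq2. Leaving out single livers gave 0.95 to 1.19, and the call held in 2 of 8 such fits, with limma adjusted p of 0.0249 to 0.0934. It was 1.20 without Brap F/F replicates 2 and 3 (limma adjusted p = 0.0266) and 0.93 without replicates 1 and 4 (limma adjusted p = 0.0135). Both settings were added after the data were seen, and with groups that do not overlap the sign could not change. Scd2 amounted to 0.129% to 0.235% of the Scd1 count in Brap LKO livers and 0.0276% to 0.115% in controls. Marker lists of several other cell types had medians above 0. The median log2 fold change was 0.95 over 7 cholangiocyte markers. Of these limma called 1 higher, the chloride channel Cftr, against 0.664% of all genes called higher. The median was 0.44 over 8 stellate cell and fibroblast markers, 0.39 over 8 macrophage markers and 0.16 over 8 sinusoidal endothelial markers. In these 3 lists limma called 0, against 0.769% of all genes called in either direction. The median was -0.05 over 4 adipocyte, -0.08 over 6 red blood cell, -0.18 over 9 hepatocyte and 0.43 over 2 pancreas markers. Over 10 pericentral hepatocyte markers it was 0.28. Of these limma called 1 higher and 1 lower, against 0.664% and 0.104% of all genes. Over 10 periportal hepatocyte markers it was -0.09, with 1 called higher. Summed stellate cell and fibroblast counts were 7172 to 11329 in Brap LKO and 4766 to 8415 in Brap F/F livers. Summed macrophage counts were 4804 to 8848 and 5258 to 7135. The part of any of these cells in the Scd2 difference was not tested.

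**Figure D5:**
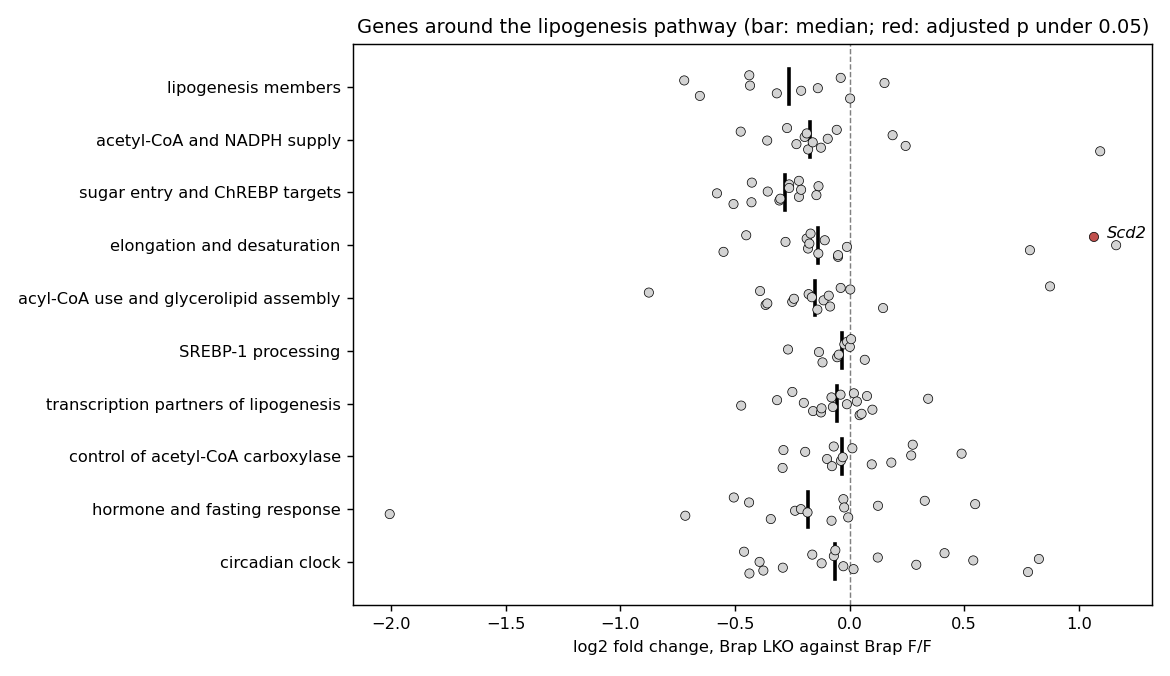
Log2 fold change of Brap LKO against Brap F/F for each tested gene of the lipogenesis genes and of 9 lists around them, with a bar for the median of each list and red for an adjusted p under 0.05 with limma. Scd2 is the red point, and all 14 genes of sugar entry and ChREBP targets lie below 0.

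Of the list of sugar entry genes and ChREBP targets, all 14 had log2 fold changes below 0, with a median of -0.28 against -0.01 over all genes. Their summed normalized counts followed the control pairs, at 220243, 354333, 330664 and 236017 in Brap F/F replicates 1 to 4 and 168848 to 231813 in Brap LKO livers. Without Brap F/F replicates 2 and 3, 9 of 14 were below 0 and the median was -0.06, and without replicates 1 and 4 it was -0.48. None was called with limma or edgeR. At an unadjusted p of 0.05, 5 of 14 passed as lower with limma, against 6.59% of all genes, and DESeq2 called 2, Tkfc and Pfkfb1, a bifunctional enzyme that controls glycolysis, against 1.13% of all genes called lower. The groups did not overlap for 3 of 14, Tkfc, Pfkfb1 and Pfkl, against 4.39% of all genes in this direction. These were named after their values were seen. Tkfc, a kinase of fructose breakdown, ran from 12771 to 15482 in Brap LKO livers and from 17799 to 20916 in controls (log2 fold change -0.43, limma adjusted p = 0.0869). Pygl, liver glycogen phosphorylase, differed by -0.13 (limma adjusted p = 0.626). When each liver was given the same total of reads, the median of all genes moved to 0.15, so that values this close to 0 depend on scaling.

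Supply of acetyl-CoA and NADPH held 14 genes with a median of -0.17, elongation and desaturation 15 tested genes with -0.14, and glycerolipid assembly 16 with -0.15. Without Brap F/F replicates 2 and 3 these medians were -0.01, -0.03 and -0.05, and without replicates 1 and 4 they were -0.31, -0.14 and -0.43. Lpin1, a phosphatidate phosphatase and coactivator, followed the control pairs at 8868, 43137, 48236 and 14718 in Brap F/F replicates 1 to 4 and 9562 to 17788 in Brap LKO livers (log2 fold change -0.88, limma adjusted p = 0.430). Idh1, Mdh1, Fads1, Fads2 and Acsl1, the most abundant of their lists, had log2 fold changes of -0.23, -0.16, -0.18, -0.01 and -0.14. None of these passed.

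The regulatory lists were read last. The 10 genes of SREBP-1 processing had a median of -0.03, with Insig1, which holds SREBP in the endoplasmic reticulum, at -0.13. The 18 transcription partners had a median of -0.06, with Hnf4a at 0.05 and Rxra at -0.08, and the 14 genes that control acetyl-CoA carboxylase -0.03, with Mlycd, which breaks down malonyl-CoA, at -0.04 and the kinase subunit Prkaa2 at -0.03. The hormone and fasting response list had a median of -0.18, with Pck1 at -0.44, and the circadian clock -0.06, with Tef at -0.06 and Dbp at 0.29. Without Brap F/F replicates 2 and 3 the medians of these 5 lists ran from -0.04 to 0.11, and without replicates 1 and 4 from -0.40 to -0.04. In each of these lists limma and edgeR called 0 genes. An unadjusted p of 0.05 with limma was passed by 11 of the 74 genes, 14.9% against 15.8% of all genes. DESeq2 called 1, the insulin receptor substrate Irs2, against 4.15% of all genes.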

How the data were processed

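RNA was measured in 8 livers, grouped by their labels (4 Brap LKO, 4 Brap F/F). The authors sequenced single-end reads of 50 bases, aligned them to mm10 with STAR 2.6.0c and deposited a signal for 24451 genes, reads divided by a DESeq2 size factor. The counting tool is not given in the sources used here. The authors' own comparison table (fold changes and p-values) was not used. All values (100%) were whole reads within 0.01. Genes with a mean of at least 5 (15352) were tested on log2(value + 1) with limma 3.58.1 and Benjamini-Hochberg adjustment, threshold 0.05, so fold changes of low genes are understated. edgeR 4.0.16 and DESeq2 1.42.0 on the recovered reads were alternatives. The fit was tested on simulated data. Lengths and positions come from GENCODE M21 (mm10).

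The genes and lists were chosen with earlier results of these data known. Named are all 10 genes, Brap, list genes past the threshold (at most 5), the 2 most abundant of each list, and the 5 most similar and 5 most opposite profiles with a mean of at least 50. Some genes named by this rule are not reported here. Cyp4a14, Tkfc, Pfkfb1, Pfkl, Irs2 and marker genes were named after their values were seen.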

Additional observations from a re-analysis of the deposited data

Results flagged for a closer look

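A gap test for single livers was run on 88 groups of 4 values and marked 3, where chance would give about 4.4. The log2 ratio of Acacb to Acaca in Brap F/F replicate 1 was 2.25, with the next control at 1.64. The log2 ratio of Mlxipl to Srebf1 in Brap LKO replicate 4 was 0.81, with the next liver of its group at 0.48. Zbp1 in Brap LKO replicate 4 measured 519 normalized counts, with the next at 306.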

How the results depend on the processing

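Among the 10 genes, Acacb, Acly and Mlxipl kept their direction in every setting, Scd1 and Me1 in every planned one. Without single livers, Acly ran from -0.50 to -0.18, Mlxipl from 0.06 to 0.25, Scd1 from -1.15 to -0.26 and Me1 from -0.75 to -0.16, and without Brap F/F replicates 2 and 3 Acly was -0.024. Fasn turned to 0.019 with the same total per liver and 0.11 with animal series as a covariate, and ran from -0.39 to 0.081 without single livers. Acaca was -0.15 with array weights, -0.050 with edgeR and -0.063 with DESeq2, and -0.21 to 0.19 without single livers. Elovl6 was 0.080 with the animal series and -0.52 to 0.063 without single livers, Srebf1 0.12 with the same total, 0.076 with quantile normalization and -0.17 to 0.16 without single livers, and Thrsp -0.81 to 0.049. The highest of these ranges, except for Mlxipl, came without Brap F/F replicate 3. In the settings added after seeing the data, leaving out Brap F/F replicates 2 and 3 turned Fasn to 0.30, Scd1 to 0.39, Elovl6 to 0.48, Srebf1 to 0.15, Me1 to 0.29 and Thrsp to 0.58, and leaving out replicates 1 and 4 turned Acaca to -0.41 and gave 8 genes past the threshold as lower. DESeq2 gave 1. The cause was not tested.

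Limma called 102 genes higher and 16 lower. Higher genes numbered 459 with the same total per liver, 62 with quantile normalization, 185 with array weights, 455 with DESeq2, 283 at an adjusted p under 0.1, 10 at 0.01, 67 when a log2 change of 1 or more was also required, 11 to 178 without single livers and 901 without Brap F/F replicates 1 and 4. Lower genes numbered 9 at a minimum mean of 20, 39 with array weights, 170 with DESeq2, 64 at 0.1, 3 at 0.01, 9 with that fold, 4 to 54 without single livers, 47 without replicates 2 and 3 and 704 without replicates 1 and 4.

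Correlations with Srebf1 turned to -0.57 for Acacb, -0.12 for Scd1 and -0.38 for Me1 without the 2 livers farthest from its median, and to -0.088 for Acacb with the same total. With the replicate block, 80 genes were higher and 15 lower, 0 of the 10 passed, and Acacb stood at a limma adjusted p of 0.114. The Acacb to Acaca ratio stood at an exact permutation p of 0.125, the smallest value that test can give with 4 pairs. Deviations of same-numbered livers correlated at -0.13, 0.003, 0.20 and 0.29, so the numbers were not treated as pairs, and not every liver correlated best with its own number. With 4 livers a group, confidence intervals of the log2 fold change were wide. They ran from -1.98 to 0.54 for Scd1 and from -1.66 to 0.79 for Thrsp. For Me1 the interval was -1.23 to 0.36, and for Elovl6 -1.003 to 0.58. All of these include 0 and reach past a halving, so a lower level of that size was not excluded for these genes. The interval of Acacb, -1.03 to -0.27, also reached past a halving but lay below 0.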
